A study of Caenorhabditis elegans with 2 samples.

Results

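Small nucleolar RNA (snoRNA) genes and small nuclear RNA (snRNA) genes, the spliced leader genes among them, lay beside 237 of 30000 candidate regions. These candidates were listed for pooled chromatin from worms carrying GFP-tagged ETS-4, and they include background as well as peaks. A region was counted when its summit, the base of highest enrichment, lay within 150 bp of such a gene in the Ensembl annotation and not within 150 bp of a tRNA gene. The distance condition on tRNA genes removed 1 region. Of the 237 regions, 171 were nearest to a snoRNA gene, 53 to an snRNA gene that is not a spliced leader gene, and 13 to a spliced leader gene (sls genes). They covered 219 of the 475 annotated genes of these kinds, with 3 regions beside several genes and 21 genes beside several regions.

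ETS-4 is a transcription factor of the ETS family in Caenorhabditis elegans. The only group consisted of 2 biological replicates of ChIP-seq (sequencing of immunoprecipitated chromatin) on whole young adults of mixed sex, 73 h old and synchronised by L1 starvation after bleaching. The strain, RAF1713, holds the insertion rrrSi400 on chromosome II, in which ets-4 fused to GFP sits between its own promoter and 3'UTR next to unc-119(+), in an unc-119(ed3) III background. The precipitating antibody was directed against GFP according to the sample description, although the antibody field of the labels reads ets-4, and the tag is called both eGFP and GFP-FLAG. Every library therefore came from 1 transgenic strain with 1 insertion, and from whole animals in which the cell type of a signal is unknown. A control entered the authors' region calls. No precipitate from animals without the tag was analysed here, so every value describes recovery in this precipitate alone.

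The authors deposited 4 region lists on build ce11. Each replicate had a list of 30000 regions, the pooled replicates had another 30000, and 1102 pooled regions were kept by a threshold on the irreproducible discovery rate (IDR), a measure of how well ranks repeat between replicates. The 30000-region lists hold background as well as peaks, so presence in them says little by itself. The IDR regions are the 1102 pooled regions with the highest signal, from 79.4 upward. Signal is the region caller's own enrichment value, compared here only within a list, and ranks run from 1 for the strongest region. The number of reads is unknown. Since all samples form 1 group, no test between conditions was made, and shares are given with exact Clopper-Pearson 95% intervals, which cover counting error only.

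SnoRNAs guide chemical modification of other RNAs, mostly ribosomal RNA, by base pairing, and in worms many of their genes sit inside introns of protein-coding genes. The snRNAs form the core of the spliceosome, and the spliced leader RNAs donate their 5' end to other transcripts in trans-splicing, with the sls-1 genes giving SL1 and the sls-2 genes giving SL2 for downstream genes of operons. These genes are read from short promoters of different kinds. An snRNA promoter contains a proximal sequence element upstream of the start, whereas tRNA genes and some other RNA polymerase III genes are read from an A box and a B box. In tRNA genes both boxes lie inside the transcribed region.

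Short words of different kinds were searched upstream of the genes. Examples from genes beside IDR regions are printed because counts below are grouped by them. They are matches of letters, and promoter activity was not measured. The B box was searched as GTTCNANNC and the A box as TGGCNNAG, relaxed forms of the boxes of tRNA genes. In the sequences here, read 5' to 3' on the strand of the gene from the RefSeq copy of WBcel235 (ce11), capitals mark the B box. They lie at chrV:12303630-12303654 (+), chrV:11314239-11314263 (+), chrII:11960863-11960887 (+) and chrV:19643180-19643204 (-), in the order printed.
C51F7.3: cgcttgtcGTTCAAACCttggggag
T03F7.8: acacccgaGTTCAATTCccgcctgt
W03C9.9: cgccgcggGTTCGACCCcccccccc
Y43F8C.22: gcttccggGTTCGATTCccacccac

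An A box further upstream is shown for 2 of these snoRNA genes, marked by capitals in the stretches at chrII:11960818-11960842 (+) and chrV:19643224-19643248 (-).
W03C9.9: caccgttgTGGCGCAGgcgggtagc
Y43F8C.22: gctacccgTGGCTTAGtggctaacg

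The other kind comprised a pair of short words read off the region upstream of snRNA genes, here called the distal upstream word (CGGAACCC) and the proximal upstream word (TGTCGG). Both were chosen after these upstream sequences had been seen, and neither was matched to a named element. The distal word holds GGAA, the core of ETS binding sequences. Capitals mark both words at chrII:12945002-12945029 (-), chrIII:7141326-7141353 (+), chrV:14028670-14028697 (-), chrIV:14327171-14327198 (-) and chrV:8229006-8229033 (-). The genes are 2 snRNA genes (sup-6 and T08G5.11), a spliced leader gene (sls-2.16) and 2 snoRNA genes. At T08G5.11 the words lie outside the IDR region, whose summit is beyond the 3' end of the gene.
sup-6: cggCGGAACCCgccacaTGTCGGcacac
sls-2.16: gttCGGAACCCgcgataTGTCGGgggcg
T08G5.11: atgCGGAACCCgcaaaaTGTCGGaacac
Y67A10A.14: gagCGGAACCCgtagtgTGTCGGccgcc
C16D9.11: ctgCGGAACCCgcgtagTGTCGGgcgcg

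Regions beside these small RNA genes stood high in the pooled list, and snoRNA genes accounted for most of the strongest. In all, 77 of 237 (32.5%, interval 26.6 to 38.9%) were themselves IDR regions, against 3.67% of all pooled regions. Counting also regions that touched an IDR region by at least 1 bp gave 88 of 237 (37.1%, interval 31.0 to 43.6%), against 4.27% of all pooled regions. The share was 24.1% when only the 551 strongest IDR regions were counted. A shorter list can only lower such a share, also over all pooled regions, for which it was not recounted. Regions that only touched the list each overlap a stronger one, and the counts below are of IDR regions themselves unless overlap is named. The median pooled signal was 51.8 for the 237 regions, with a range of 22.4 to 429.9, against 31.6 for all pooled regions. Their median rank was 3790, and 184 of 237 lay in the stronger 15000 of the list. They included 18 of the 100 strongest regions.

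Regions beside snoRNA genes reached the IDR list more often than those beside snRNA genes, and the few beside spliced leader genes could not be placed relative to either. The list held 65 of the 171 regions beside snoRNA genes (38.0%, interval 30.7 to 45.7%) and 6 of the 13 beside spliced leader genes (46.2%, interval 19.2 to 74.9%). By contrast, 6 of the 53 beside other snRNA genes were in it (11.3%, interval 4.27 to 23.0%), and this interval did not overlap that of the snoRNA regions, whereas the spliced leader interval overlapped both. For comparison, 80 of 408 regions beside tRNA genes (19.6%, interval 15.9 to 23.8%) and 5 of 60 beside miRNA genes (8.33%, interval 2.76 to 18.4%) were IDR regions. Median signals followed a similar order, at 67.4 beside spliced leader genes, 58.5 beside snoRNA genes, 38.2 beside snRNA genes, 51.6 beside tRNA genes and 35.8 beside miRNA genes.

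**Figure D1:**
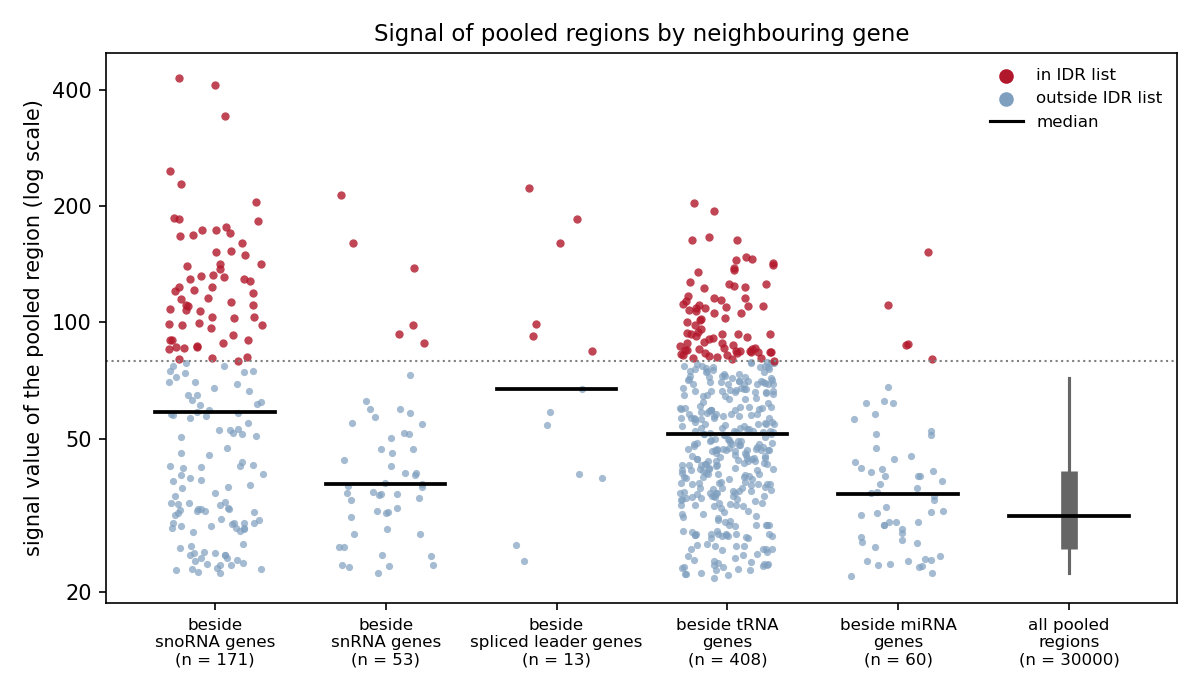
Signal value of each pooled region (log scale) by the kind of small RNA gene beside it. Points are regions, red where in the IDR list, black lines are medians, and the grey bar for all pooled regions spans the 25th to 75th percentile with a thin line from the 5th to the 95th. The dotted line is the lowest IDR signal, 79.4, and the highest snoRNA region reaches 429.9.

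Counted per gene instead of per region, 66 of 346 snoRNA genes had an IDR summit within 150 bp (19.1%, interval 15.1 to 23.6%). For 0.806% of protein-coding genes an IDR summit lay within 150 bp of the annotated 5' end. That stretch is shorter than the one around a whole snoRNA gene, so the 2 shares are not fully alike. Among snRNA genes without the spliced leaders, 6 of 99 had an IDR summit within 150 bp of the gene (6.06%, interval 2.26 to 12.7%). With the spliced leaders the share was 12 of 129 (9.30%, interval 4.90 to 15.7%). The last share was 3.88% (5 of 129) with summits in protein-coding promoters left out, and 4.65% when only the 551 strongest IDR regions were counted. Both settings can only lower a share, and the other kinds of gene named in this paragraph for comparison were not recounted under them. With all IDR summits, the share was 91 of 612 for tRNA genes (14.9%, interval 12.1 to 17.9%). For miRNA genes it was 5 of 261 (1.92%, interval 0.625 to 4.41%). A pooled region of any strength lay beside 164 snoRNA genes (47.4%) and 44 snRNA genes (44.4%), against 421 tRNA genes (68.8%) and 2437 protein-coding 5' ends (12.2%). The intervals for snoRNA genes (42.0 to 52.8%) and snRNA genes (34.5 to 54.8%) overlapped for regions of any strength.

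**Figure D2:**
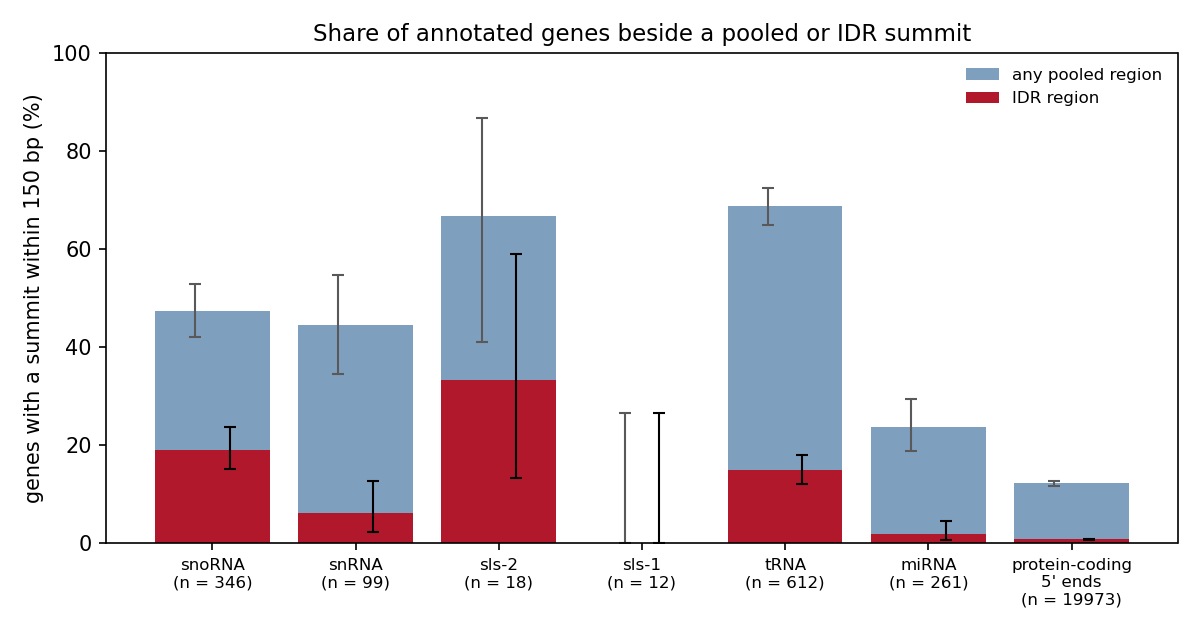
Percent of annotated genes with a summit within 150 bp, for any pooled region (blue) and for an IDR region (red, drawn in front), with exact 95% intervals. The snoRNA genes reach 19.1% for IDR regions, tRNA genes 14.9%, and protein-coding 5' ends 0.806%.

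Spliced leader genes split by type. All 6 IDR regions lay beside sls-2 genes, 6 of 18 (33.3%, interval 13.3 to 59.0%), and 12 of the 18 had a pooled region of any strength. None of the 12 sls-1 genes had a region, which allows a share of up to 26.5%. Reads from identical genes cannot be assigned to 1 of them, and 12 of the 30 spliced leader genes had an identical copy, in sets of up to 10. How the authors treated such reads is not given in the sources used here, so whether sls-1 genes were unbound or unmappable cannot be told apart.

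The same limit bears on the snRNA class. Of 99 snRNA genes, 32 had an identical copy elsewhere, in sets of up to 14, while none of the 346 snoRNA genes did. Of the windows reaching 50 bp to each side of a summit, 18 of 53 beside snRNA genes (34.0%) held a 50-base stretch found again in the genome, against 5 of 171 (2.92%) beside snoRNA genes and 192 of 408 (47.1%) beside tRNA genes. The share over all pooled regions was 3.43%. The part of repeated sequence in the lower signal of snRNA genes was not tested.

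The strongest region of the whole pooled list lay beside the snoRNA gene ZK994.7, inside an intron of pxn-1, which encodes a peroxidasin. It spanned chrV:8500408-8500684 with its summit 30 bp upstream of the snoRNA gene. Its signal was 166.0 in replicate 1 (rank 3) and 273.3 in replicate 2 (rank 1), and 429.9 in the pooled list. Its upstream sequence held the proximal upstream word at -69, and no A or B box. The base of the summit is the capital in the 29 bases shown from chrV:8500535-8500563 (+).
ZK994.7 summit: tttataagcgactgCaaacacacttagcg

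The region with rank 3 in the pooled list covered chrV:12303505-12303751 in an intron of frm-7, a gene for a FERM domain protein. It was shared by the snoRNA genes C51F7.4 and C51F7.3. Its signal was 168.4 in replicate 1 and 241.2 in replicate 2, rank 2 in both, and 412.7 when pooled. The summit fell 42 bp inside C51F7.4. B boxes began 70 and 44 bp upstream of C51F7.3, both inside the annotated C51F7.4 gene, and the earlier of them is printed above.

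Next came T03F7.8, on chrV:11314110-11314355, within an intron of the cuticlin-like gene cutl-18 but on the opposite strand. Its signal was 139.6 in replicate 1 (rank 8), 198.1 in replicate 2 (rank 6) and 342.5 pooled (rank 6). W03C9.9, outside any protein-coding gene on chrII:11960729-11960925, had signals of 93.5 in replicate 1 (rank 28), 159.5 in replicate 2 (rank 12) and 247.0 pooled (rank 13). The summit lay 38 bp upstream of T03F7.8, and at W03C9.9 it lay 59 bp upstream of the gene, between the A box and the B box. These 4 strongest regions thus stood among the first 30 in each replicate alone.

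A further 12 snoRNA genes completed the 20 strongest IDR regions, together with 2 snRNA and 2 spliced leader genes. Y23H5B.10 and ZK265.10 had pooled signals of 228.5 (rank 22) and 204.7 (rank 42). In the replicates alone Y23H5B.10 ranked 116 in replicate 1 and 10 in replicate 2, and ZK265.10 ranked 102 and 26. F59C6.15 ranked 294 in replicate 1 and 21 in replicate 2, and T19B4.8 ranked 81 and 65, at pooled signals of 187.0 and 185.9. The summits at ZK265.10 and F59C6.15 lay in protein-coding promoters. B0334.12, which lies against the strand of the potassium channel gene twk-5, had a pooled signal of 183.4. Its summit was 109 bp from its start and 40 bp beyond its 3' end.

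The remaining 7 ranged in pooled signal from 160.6 at T06C12.16 to 176.6 at C10C6.8, which lies in an intron of catp-8, a cation-transporting ATPase gene. Between them stood D1046.6 in an intron of cfim-2 (174.1), W01C9.6 (173.4), Y43F8C.22 (170.6), T02E1.9 (168.3) and C41C4.11 (167.2). The summits at T02E1.9 and C41C4.11 lay in protein-coding promoters. D1046.6 and T02E1.9 had their summits just inside the gene, at 8 and 3 bp from the start, and the other 5 had theirs 15 to 50 bp upstream. All 7 kept ranks of 320 or better in replicate 1 and 143 or better in replicate 2, so none of them rested on 1 replicate.

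Among snRNA genes, sup-6 had the strongest region, with signals of 69.0 in replicate 1 (rank 108), 155.7 in replicate 2 (rank 14) and 214.3 pooled (rank 31). R07E5.16 (WBGene00014543) followed with signals of 75.5 in replicate 1, 86.6 in replicate 2 and 160.7 pooled. This name is carried by 14 annotated genes, of which 4 had a region and 1 an IDR region. The window at WBGene00014543 held 15 repeated 50-base stretches, so part of its reads may belong to other copies.

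ZK1251.14 had a pooled signal of 138.5 (rank 188), with ranks of 338 in replicate 1 and 172 in replicate 2. Its summit lay 147 bp upstream of the snRNA gene and within an intron of ins-7, a gene for an insulin-like peptide, inside a protein-coding promoter. T08G5.11 had a pooled signal of 98.6 (rank 622), at a summit 55 bp beyond the 3' end of the gene and in a protein-coding promoter. A weaker region of the same gene, with a signal of 62.5, overlapped it and had its summit 13 bp inside the gene.

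The last 2 snRNA regions of the IDR list were less alike between replicates or less unique. F54D8.7 (WBGene00195000), 1 of 3 genes of that name, had its summit in a protein-coding promoter. The signal was 17.4 in replicate 1 with rank 13217, against 73.5 and rank 328 in replicate 2. T11F9.15 (WBGene00014291) had a pooled signal of 88.6, ranks of 624 in replicate 1 and 1330 in replicate 2, and 6 repeated stretches. The same region lies in the promoter of snr-4, which encodes an Sm protein of the spliceosome.

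The 6 IDR regions beside sls-2 genes had pooled signals of 84.5 to 222.9. The strongest was at sls-2.4, with signals of 87.1 in replicate 1 (rank 40), 136.7 in replicate 2 (rank 25) and 222.9 pooled, but its summit lay 72 bp beyond the 3' end of the gene and in a protein-coding promoter. At sls-2.1 the summit was 30 bp upstream, also in a protein-coding promoter. The signals there were 60.8 in replicate 1, 123.0 in replicate 2 and 185.7 pooled. The region at sls-2.2 reached 160.2, and that at its neighbour sls-2.3 reached 92.4, at ranks of 844 in replicate 1 and 1256 in replicate 2. Those at sls-2.16 (99.2, in an intron of the glutamate receptor gene glr-2 on the other strand) and sls-2.8 (84.5) completed the set. The summit at sls-2.8 lay in a protein-coding promoter as well. In each of the 6, replicate 1 placed the region among its own 1102 strongest, and replicate 2 did so in 5.

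Outside the IDR list the strongest regions were all beside snoRNA genes. ZK546.18, in an intron of mdt-4, a Mediator subunit gene, had a pooled signal of 78.6 (rank 1135), just under the lowest IDR signal. F12F6.11 had 77.1 (rank 1201), and T15H9.8, in an intron of dnj-20, had 77.0 (rank 1206) with its summit 126 bp beyond its 3' end. Their ranks in the replicates, from 1187 to 2260, were close to the 1102 places of the IDR list. ZK546.18 carried an A box at -56 and a B box at -12, and F12F6.11 a B box at -16.

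The 2 replicates placed most of the strong regions high in their own lists. All 77 IDR regions beside these genes were found in both replicate lists. Of the 1025 other IDR regions, 1023 were found in that of replicate 1 and 1024 in that of replicate 2. Of the 77, 52 (67.5%) were among the 1102 strongest of both replicates, against 525 of the 1025 other IDR regions (51.2%). A further 9 of the 77 were among the strongest of replicate 1 only and 14 of replicate 2 only, and 2 of neither. Their median rank was 338 in replicate 1 and 323 in replicate 2. The IDR list was itself chosen by how ranks repeat, and the 77 had a higher median pooled signal than the others (120.5 against 101.7). These shares therefore do not show that ranks repeat better at these genes. Neighbouring pooled regions can overlap the same replicate region, so these counts are not of independent regions.

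A few regions owed their place to 1 replicate. Besides F54D8.7, Y53F4B.47 ranked 14300 in replicate 1 and 165 in replicate 2, Y71F9AM.7 ranked 13527 and 384, and T21B4.20 ranked 11547 and 435. The opposite case was C08D8.3, with rank 100 in replicate 1 and 5335 in replicate 2. These 4 were picked out for their difference, after their values had been seen.

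**Figure D3:**
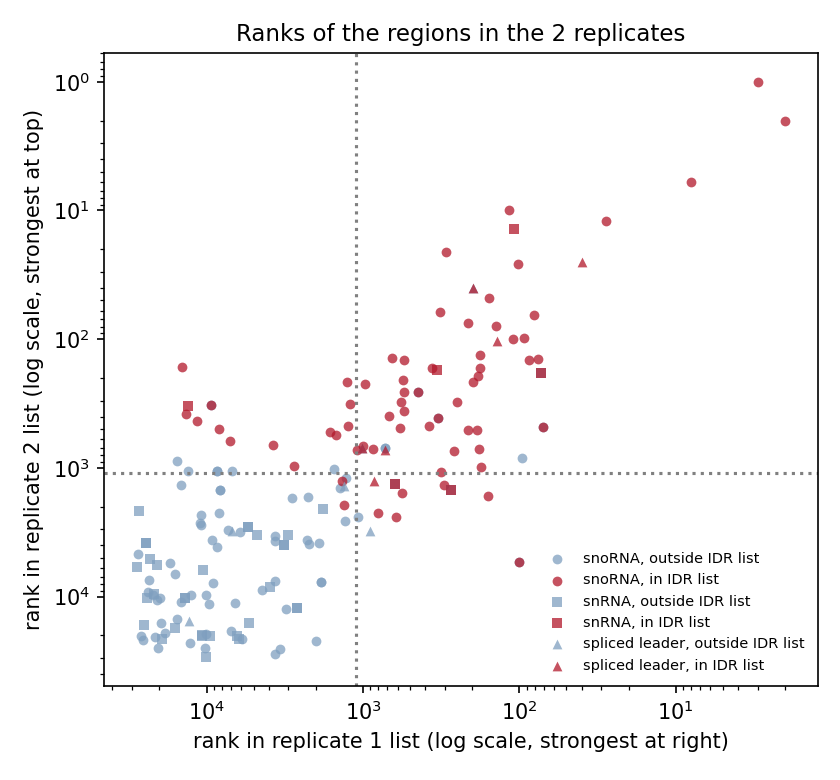
Rank of each region in the list of replicate 1 (horizontal) and replicate 2 (vertical), both on log scales with the strongest at the upper right, for regions found in both lists. Marker shape gives the class, red marks IDR regions, and dotted lines mark rank 1102. Of the 77 IDR regions, 52 lie in the upper right corner, where both replicates rank them among their strongest.

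The strong regions beside snoRNA genes were centred just upstream of the gene. Offsets are counted along the gene from its annotated 5' end, negative upstream. The 65 IDR regions had a median offset of -18 bp with the middle 50% between -42 and 8 bp, and 41 of them lay within 75 bp upstream. The 106 other snoRNA regions had a median of 23.5 bp, the middle 50% between -51 and 126 bp, and 29 within 75 bp upstream. The weaker regions were thus spread over and beyond the gene, while the IDR regions were gathered at its start. Beside snRNA genes no such gathering could be seen, with a median of 4 bp for the 6 IDR regions and 29 bp for the 47 others. Beside spliced leader genes the medians were 2.5 bp for the 6 IDR regions and 104 bp for the 7 others. Over all 237 regions the median offset was 0 bp.

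**Figure D4:**
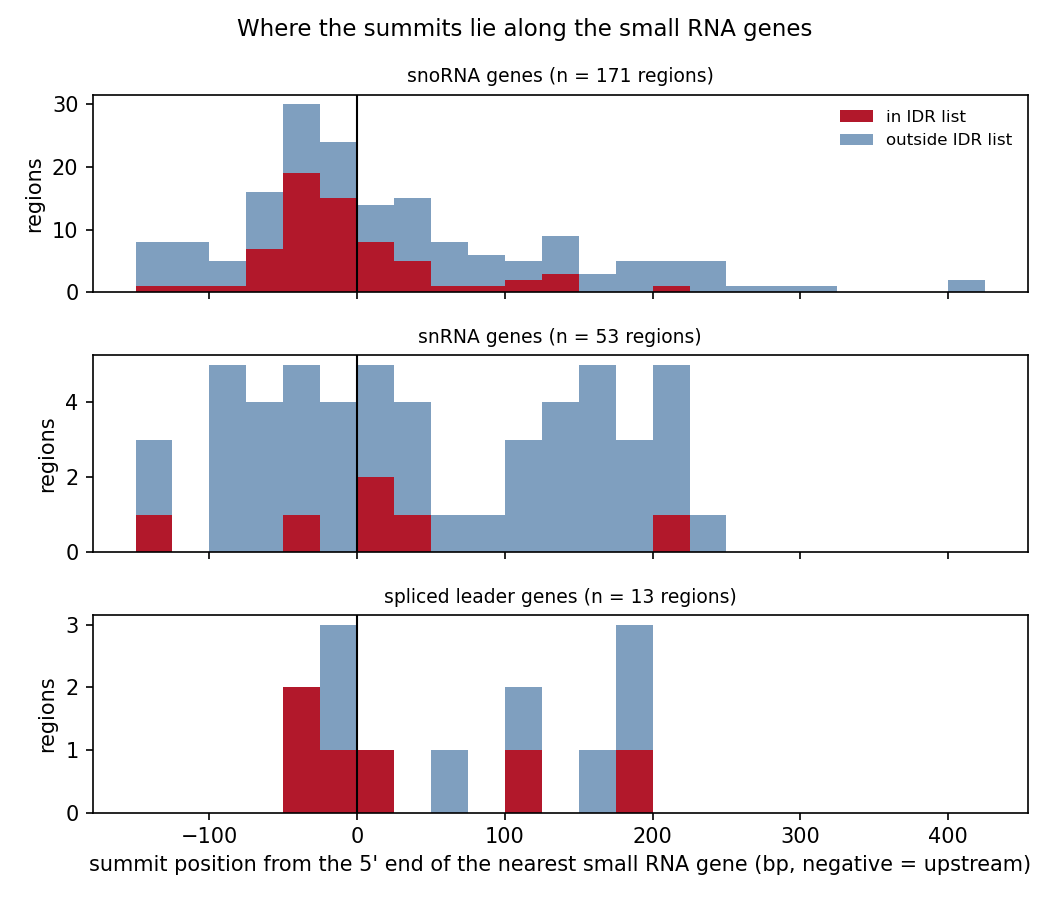
Number of regions by summit position from the 5' end of the nearest small RNA gene, in 25 bp bins, for snoRNA, snRNA and spliced leader genes. Red is the IDR list and blue the remaining regions, stacked, and the line at 0 is the 5' end. In the snoRNA panel 41 of 65 IDR summits lie within 75 bp upstream.

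None of the 77 IDR regions beside these genes lay in an exon of a protein-coding gene. Of them, 38 were in introns and 39 outside protein-coding genes, whereas 36 of the 160 others were in exons. Such shares were not counted over all pooled regions or the other IDR regions, so they cannot be called particular to these genes. Introns on the same strand as the small RNA gene held 27 of the 38. Per gene, 26 of 183 snoRNA genes inside a protein-coding gene of the same strand had an IDR summit (14.2%, interval 9.50 to 20.1%). It was 9 of 33 inside a gene of the opposite strand (27.3%, interval 13.3 to 45.5%) and 31 of 130 outside protein-coding genes (23.9%, interval 16.8 to 32.1%). These intervals overlap. An intronic snoRNA on its host's strand can be cut from the host transcript, which is background and was not measured here.

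Protein-coding promoters, taken as 1000 bp upstream to 200 bp downstream of a 5' end, held 79 of the 237 summits (33.3%), against 24.0% of all pooled summits. Of the 77 IDR regions, 25 lay in such a promoter, against 410 of the 1025 other IDR regions (40.0%). For these 25 the small RNA gene and the protein-coding gene cannot be told apart as the source of the signal. The regions were found on every chromosome, from 12 on X to 48 on II, and the IDR regions among them from 2 on X to 23 on II. These counts were not set against the number of genes or pooled regions on each chromosome.

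A and B boxes upstream went with the strong snoRNA regions. In the stretch from 150 bp upstream to 20 bp inside the gene, on the strand of the gene, a B box was present at 24 of 66 snoRNA genes with an IDR summit (36.4%, interval 24.9 to 49.1%). It was present at 9 of 98 with a weaker region only (9.18%, interval 4.29 to 16.7%) and at 7 of 182 without a region (3.85%, interval 1.56 to 7.76%). The same stretch at protein-coding genes held it in 2.51%. The A box was present at 17 of the 66 (25.8%, interval 15.8 to 38.0%), 8 of the 98 (8.16%) and 10 of the 182 (5.50%), against 1.55% at protein-coding genes. As a check of the words, 587 of 612 tRNA genes (95.9%) held the B box within the gene, and 108 (17.7%) held this form of the A box.

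The boxes gathered at particular distances from the gene. At snoRNA genes with an IDR summit the A box began at a median of -58 bp and the B box at -14 bp, so that the B box ended close to the annotated 5' end. In the 14 snoRNA genes with both, the starts were 43 to 52 bp apart, with a median of 44 bp. In the 97 tRNA genes with both they were 35 to 94 bp apart, with a median of 54 bp and a commonest value of 36 bp in 34 genes. The summits of the regions beside genes with a box had a median offset of -34.5 bp, between the places of the 2 boxes.

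Grouped by what their nearest gene carried, 31 of the 44 snoRNA regions with only an A or B box were in the IDR list (70.5%), with a median signal of 100.9. Of the 37 with only an upstream word, 13 were (35.1%, median signal 62.3). Of the 90 with neither, 21 were (23.3%, median signal 42.2). The last set includes the region at C51F7.4, whose boxes are counted under its neighbour C51F7.3. Strong regions also lay beside genes with no box in this form, such as ZK994.7, C10C6.8, D1046.6 and W01C9.6.

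The upstream words were commonest at snRNA and spliced leader genes. They had been read off the sequences upstream of snRNA genes, so their frequency and position at snRNA genes are no independent result. At least 1 of them lay upstream of 5 of 6 snRNA genes with an IDR summit, 26 of 38 with a weaker region and 17 of 55 with none. At sls-2 genes the words lay upstream of 4 of 6 with an IDR summit, 4 of 6 with a weaker region and 6 of 6 with none, and at sls-1 genes, all without a region, upstream of 0 of 12. At snoRNA genes they were 13 of 66 (19.7%), 20 of 98 (20.4%) and 13 of 182 (7.14%), so the share was about as large beside weaker regions as beside strong ones (interval 10.9 to 31.3% beside strong and 12.9 to 29.7% beside weaker ones). The distal word was otherwise rare, at 0.0651% of protein-coding genes, and the proximal word was at 1.84%. No snoRNA gene with an IDR summit had both a box and an upstream word: 32 had a box, 13 an upstream word and 21 neither.

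Where both upstream words were present their starts were 14 bp apart in every case, at 12 snoRNA genes, 8 snRNA genes and 3 spliced leader genes. The distal word began at a median of -61 bp and the proximal word at -47 bp at snRNA genes, and at -62 and -48 bp at spliced leader genes. No snRNA gene held an A box in the 99 stretches searched. A B box began at -8 bp at 10 spliced leader genes without a region, which are the 10 identical copies named sls-1.10 and so the same gene sequence counted 10 times.

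**Figure D5:**
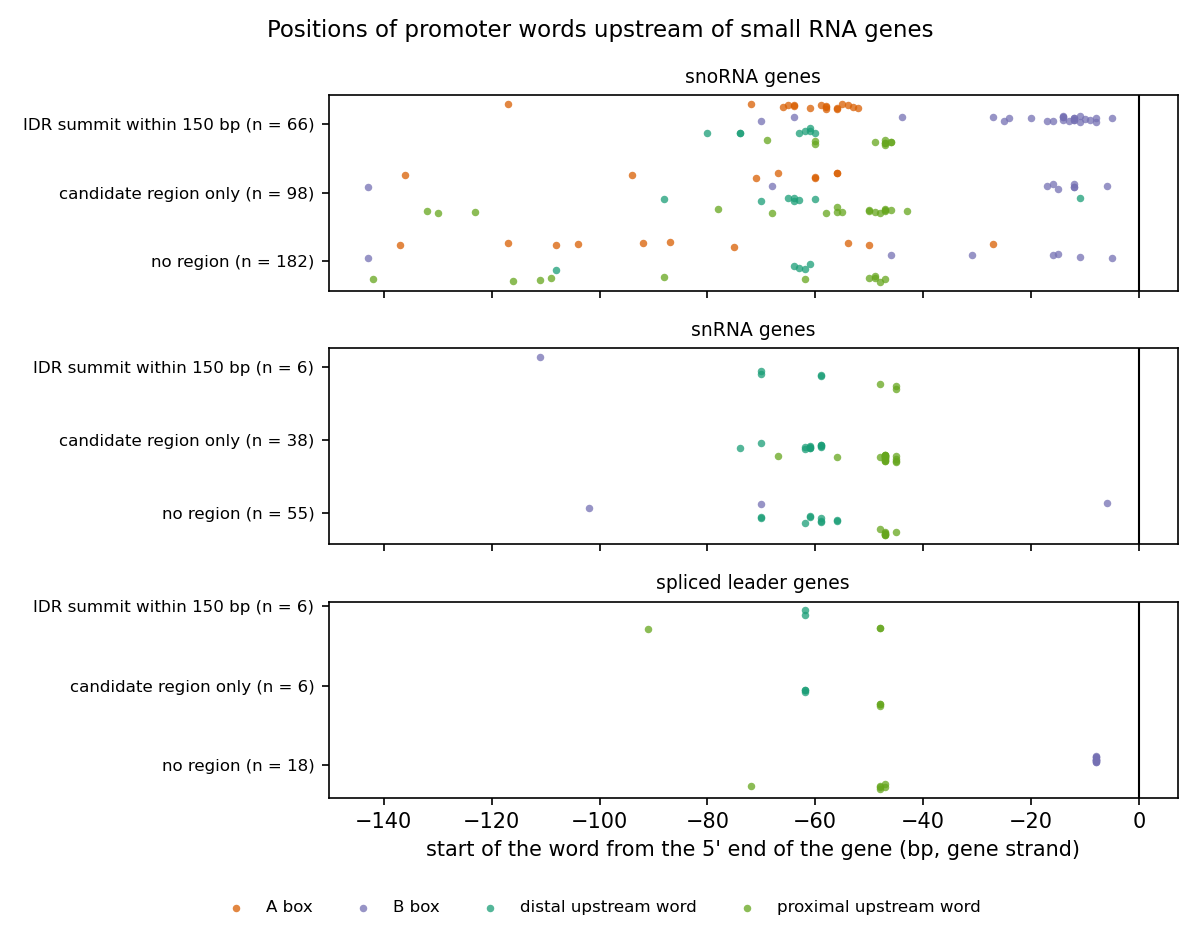
Start of each A box, B box, distal and proximal upstream word relative to the 5' end of the gene (bp, strand of the gene), for snoRNA, snRNA and spliced leader genes. Rows are genes with an IDR summit within 150 bp, with a weaker region only, and without a region, with the number of genes in each. At snoRNA genes with an IDR summit, A boxes gather near -58 bp and B boxes near -14 bp.

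The summits themselves gave a similar picture on both strands. Within 50 bp of the summit, 24 of 65 IDR regions beside snoRNA genes held a B box (36.9%, interval 25.3 to 49.8%) and 17 an A box (26.2%, interval 16.03 to 38.5%). Among the 106 other snoRNA regions, 5 held a B box (4.72%) and 9 an A box (8.49%). Of the IDR regions away from these small RNA genes 5.76% held a B box and 6.15% an A box, and over all pooled regions 4.62% and 4.67% did. Beside tRNA genes the B box was in 44.6% of windows. The distal upstream word was in 10 of 66 windows beside snRNA and spliced leader genes (15.2%), against 0.407% of all pooled windows. This difference follows in part from the choice of the word, which was read off sequences upstream of snRNA genes.

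ETS sequences were no more frequent at these summits than elsewhere in the pooled list. Either CCGGAA or CCGGAT, the ETS sequences searched on both strands, was present in 10 of 237 windows (4.22%, interval 2.04 to 7.62%), against 7.36% of all pooled windows. In the IDR list it was in 3 of the 77 (3.90%, interval 0.811 to 10.97%), against 4.88% of the other IDR regions. The short core GGAA was in 53.6% of the 237 windows, against 65.7% of all pooled windows. The share with CCGGAA or CCGGAT was 2.29% for regions of replicate 1 alone, 4.17% for those of replicate 2 alone, and 7.60% when 100 bp to each side of the summit were searched, a width for which all pooled regions were not counted. A match or its absence describes these letters in these windows only.

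Of the 3 IDR regions with an ETS sequence, 2 are shown with the match in capitals, on the strand that holds it. At Y43F8C.22 (chrV:19643187-19643212, +) the match adjoins the B box printed for that gene, on the other strand. The stretch at sls-2.2 is chrII:5543683-5543708 (-).
Y43F8C.22 ETS: ggaatcgaacCCGGAAgctgtgggcg
sls-2.2 ETS: ttttgctctaCCGGATaaccccagca

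The GATA sequence TGATAA, bound by GATA factors of the gut and epidermis, was also scarce here. It was in 3 of the 77 IDR windows beside small RNA genes (3.90%, interval 0.811 to 10.97%), against 295 of the 1025 other IDR windows (28.8%, interval 26.0 to 31.7%). Over all pooled windows it was in 10.5%. The intervals of the 2 sets of IDR windows did not overlap. Composition also differed. Mean GC content was 47.9% for the 237 windows and 43.2% for all pooled windows, and its part in the word counts was not tested.

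Genes for proteins that work with these RNAs showed IDR summits in few of their own promoters, in a share whose interval includes that of all protein-coding genes. Of 49 matched genes for snoRNA, Sm, Lsm, snRNA transcription, Integrator and trans-splicing proteins, 3 had an IDR summit in the promoter (6.12%, interval 1.28 to 16.9%), against 2.59% of all protein-coding genes. Weaker regions only were in the promoters of 19 (38.8%, interval 25.2 to 53.8%), against 31.9% of all protein-coding genes. The 3 were snr-4 through the region beside T11F9.15, snpc-3.4 (signal 99.7), a subunit of the factor that binds snRNA promoters, and ints-4 (83.0), a subunit of the Integrator complex that trims snRNA ends. None of the 3 was among the 7 genes for snoRNA-binding proteins, a number too small to set against that background. The weaker regions included nol-58 (43.1) and nol-56 (40.9), which encode core proteins of methylation-guiding snoRNA particles, and fib-1 (28.0), which encodes the methylase fibrillarin.

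An IDR region lay close to the 150 bp limit on either side. Just inside it were T06D8.11 at 142 bp (signal 22.8), Y71G12B.41 at 144 bp (32.6) and ZK1251.14 at 147 bp (138.5). Just outside were R151.13 at 152 bp (56.01), M7.15 at 155 bp (122.5, an IDR region) and F58D5.11 at 163 bp (37.4).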

How the data were processed

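The signal value of each region and its −log10 q are the authors' deposited values, in narrowPeak layout, with build ce11 per the labels. Per the text files deposited with them, each list came from alignments and a control file. Not given in the sources used here: aligner, region caller, IDR threshold and treatment of reads with several matches. Depth is unknown and the control was not analysed. The −log10 q was used only to count regions at its ceiling, 84 of the 237.

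Positions were compared with Ensembl release 115 (WBcel235) genes, 1-based. The regions, word searches and gene lists were chosen with earlier results of these data known. A promoter ran from 1000 bp upstream to 200 bp downstream of a protein-coding 5' end. Searches covered 50 bp each side of a summit (both strands) or 150 bp upstream to 20 bp inside a gene. A repeated stretch is a 50-mer found elsewhere in the genome.

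Named regions were the 20 strongest in the IDR list, every IDR region beside an snRNA or spliced leader gene, the 3 strongest outside it, and 3 on each side of the distance limit. Regions overlapping the IDR list were the planned count, and regions in the list itself were added later. Listed proteins without a matched symbol were nhp-2, sap-1, lsm-2, snpc-1.5, bdp-1, ints-10, ints-12 and ints-14. Code was tested on simulated data. Software was Python 3.11.15 with matplotlib 3.10.9, scipy 1.17.1, pandas 2.3.3 and numpy 2.4.6.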

Additional observations from a re-analysis of the deposited data

How the results depend on the processing

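Of 47 recomputed values, 37 stayed within the 95% interval (shares) or 1 SD between replicates (medians) of the reported one. For medians, that SD came from the values with 1 replicate left out. Those values are also among the 47, so the SD is no independent check of them. The share of regions overlapping the IDR list was 24.1% with the 551 strongest of that list, against 37.1% reported, and 32.5% for regions in the list itself, which was chosen after seeing the data. The median rank was 3503 to 5363 with 1 replicate left out. With summits in protein-coding promoters left out, an IDR summit lay beside 3.88% of snRNA genes with spliced leaders and 13.9% of snoRNA genes. With the 551 strongest the shares were 4.65% and 13.3%. Counting fewer IDR summits over the same regions or genes can only lower a share, and the background shares were not recounted. The median offset was 9 bp at a limit of 50 bp, -5 bp at 300 bp, -5.5 bp without repeated windows, and 1.5 to 8.5 bp with 1 replicate left out. The share of windows with an ETS sequence, 4.22%, was 2.29 to 4.17% with 1 replicate left out and 7.60% with windows of 100 bp to each side, all within its wide interval. The cause of the other shifts was not tested. No paired analysis was possible because there was 1 group. Depth is unknown, no tag-free precipitate was analysed, and multi-copy snRNA and sls-1 genes limit what can be read from their regions.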
